A study of Aquarana catesbeiana with 18 samples.

Results

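The glutathione S-transferases, cytosolic sulfotransferases and UDP-glucuronosyltransferases of the American bullfrog (Aquarana catesbeiana) were followed in RNA sequencing libraries of liver, eyes and back skin from albino and wild-type frogs. Their genes were taken by the wording of the product descriptions, which found 83 of the 24636 genes in the table. Of these, 28 are glutathione S-transferases, 26 are cytosolic sulfotransferases and 7 are UDP-glucuronosyltransferases. The other 22 are carbohydrate and tyrosine sulfotransferases of the Golgi membrane, taken only because a number follows the word sulfotransferase in their names, and they are described apart from the 3 families. Sulfotransferase genes whose descriptions lack that wording, such as the amine sulfotransferase-like genes, are not among the 83. The 18 libraries formed 6 groups of 3: albino liver, wild-type liver, albino eyes, wild-type eyes, albino back skin and wild-type back skin. The labels spell albino as "abino" and give no allele, age or treatment. Nothing in them tells whether the replicates came from different animals, so p-values measure only the spread between these libraries, which may be technical.

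These families carry out the conjugation step by which vertebrate cells make foreign and endogenous compounds more soluble. Glutathione S-transferases join the tripeptide glutathione to electrophiles, and several also reduce lipid peroxides. Cytosolic sulfotransferases move sulfate from the activated donor PAPS onto phenols, steroids, thyroid hormones and amines. UDP-glucuronosyltransferases, held in the endoplasmic reticulum, attach glucuronic acid from UDP-glucuronic acid to bilirubin, steroids and many drugs. The liver is the main site of these reactions, and epithelia such as skin and tissues of the eye hold their own sets of the enzymes.

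Total counts ran from 38.3 to 39.2 M counts (M stands for mega) per library in liver, from 34.3 to 36.4 M in eyes and from 35.7 to 36.8 M in skin, and between 67 and 75 of the 83 genes had a count in any library. Levels are given in the deposited FPKM, which scales fragments by gene length and by the library's counted reads, so they can be compared between genes. The tissue labels fitted the marker genes. The 5 hepatocyte markers in the table summed to 16068 to 19889.8 FPKM in albino liver and 8398 to 12754 FPKM in wild-type liver, and to at most 2.16 FPKM in any library of eyes or skin. The 10 rod and cone markers summed to 17075 to 24282 FPKM in albino eyes and 9209 to 14167 FPKM in wild-type eyes. The 6 epidermis markers summed to 315 to 569 FPKM in albino skin and 258 to 429 FPKM in wild-type skin. The eye libraries differed in lens RNA: the 70 crystallin genes took 0.291%, 0.305% and 8.75% of counts in albino eyes, against 22.7%, 37.6% and 26.3% in wild-type eyes. In such whole-tissue libraries, fewer cells of a type and less RNA per cell cannot be told apart. Many of the genes are close copies of each other, and how reads matching several copies were shared is unstated, so values of single copies are uncertain to that extent.

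By deposited FPKM, the 3 families differed in level by tissue, and liver held the most of each in both genotypes. The exception was that the glutathione S-transferases of wild-type liver and skin overlapped. These rankings of sums were not repeated with the scaling of the tissue tests. The 28 glutathione S-transferases summed to 1662 ± 86.3 FPKM in albino liver and 1723 ± 27.7 FPKM in wild-type liver (SD, n = 3 here and below). Their sums were 709 ± 106 FPKM in albino eyes and 399.8 ± 29.0 FPKM in wild-type eyes, then 1289.7 ± 163 FPKM in albino skin and 1441 ± 378 FPKM in wild-type skin. These enzymes were thus abundant in all 3 tissues. The 26 cytosolic sulfotransferases were mostly a liver set, with 1138 ± 75.1 FPKM in albino liver and 1803 ± 118 FPKM in wild-type liver. They summed to 72.9 ± 3.94 FPKM in albino eyes and 38.5 ± 5.77 FPKM in wild-type eyes, and to 40.9 ± 13.7 FPKM in albino skin and 22.3 ± 7.30 FPKM in wild-type skin. The 7 UDP-glucuronosyltransferases were the scarcest family, at 39.2 ± 11.9 FPKM in albino liver and 64.6 ± 22.0 FPKM in wild-type liver. Outside liver they reached 1.28 ± 0.202 FPKM in albino eyes, 1.47 ± 0.283 FPKM in wild-type eyes, 4.08 ± 0.732 FPKM in albino skin and 5.01 ± 1.36 FPKM in wild-type skin.

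Between the genotypes, the sulfotransferase sums did not overlap in any tissue: the log2 ratio of albino over wild-type FPKM was -0.66 in liver, 0.93 in eyes and 0.88 in skin. The liver gene LOC141108187 was also part of the skin sums, with 11.3, 18.6 and 11.1 FPKM in albino skin, against 2.82, 1.86 and 8.51 FPKM in wild-type skin; its own difference in skin did not pass (1.51 ± 0.65 on the log2 scale, adjusted p = 0.389). Without it the skin ratio was 0.58, with sums of 22.2, 38.1 and 21.4 FPKM in albino skin and 19.0, 13.4 and 21.3 FPKM in wild-type skin. The sum of the hepatocyte markers moved in the same direction in skin, at 0.619 to 1.09 FPKM in albino skin and 0.0137 to 0.146 FPKM in wild-type skin. Of the 5 markers, 1 was at 0 counts in each group. Only 1 had enough counts to be tested in skin, and it did not pass. The part of these markers was not tested. The glutathione S-transferase sums did not overlap in eyes, with a log2 ratio of 0.82, and overlapped in liver and skin. Crystallins took a larger share of counts in wild-type eyes, and with the crystallin genes left out of the FPKM scaling the eye ratios were 0.37 for glutathione S-transferases and 0.48 for sulfotransferases. With libraries scaled by TMM (trimmed mean of M values), which allows for the few genes that take a large share of reads, the sulfotransferase ratios became -0.39, 0.70 and 0.90 in the same order, and the glutathione S-transferase ratio of eyes became 0.59. The glutathione S-transferase sum of liver changed direction with that scaling, with a log2 ratio of -0.05 before and 0.22 after it. These sums were described and not tested.

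**Figure D1:**
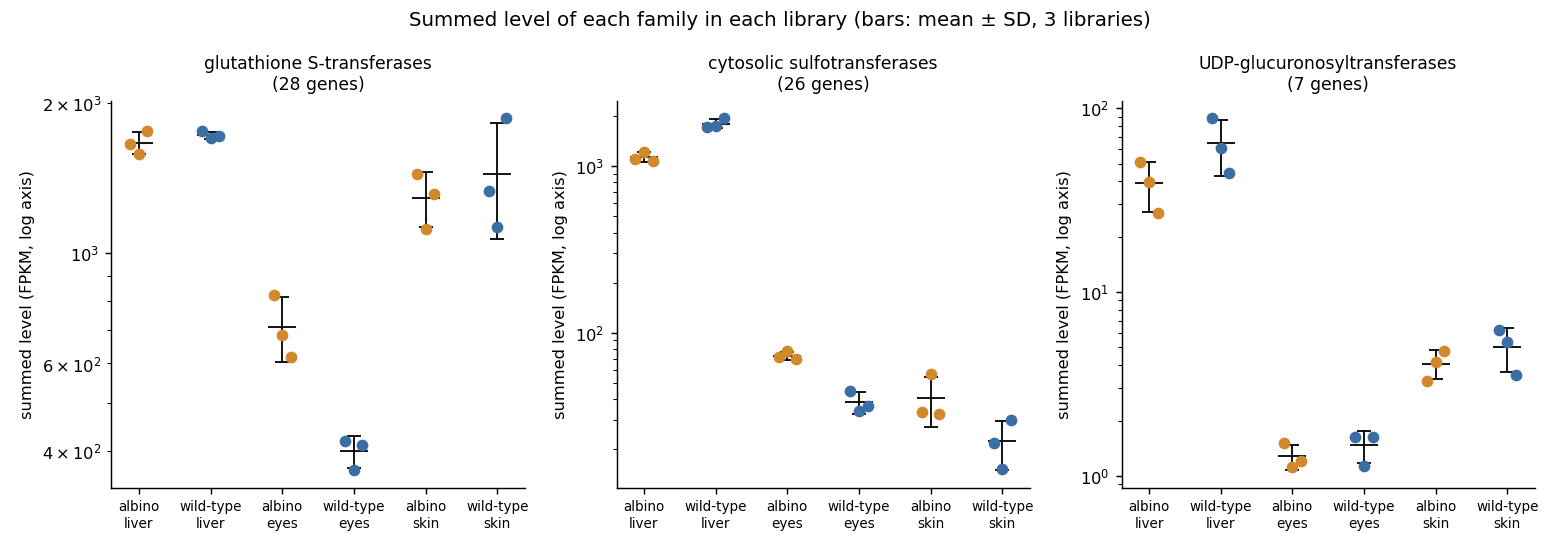
Summed FPKM (log axis) of the 28 glutathione S-transferases, 26 cytosolic sulfotransferases and 7 UDP-glucuronosyltransferases in each library of the 6 groups; points are libraries, bars the mean and SD of 3. Sulfotransferases and UDP-glucuronosyltransferases stand highest in liver, and the sulfotransferase points of the genotypes are apart in each tissue.

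Tissues were compared within each genotype by edgeR's quasi-likelihood test, with p adjusted over all genes tested by the Benjamini-Hochberg method and a threshold of 0.05; log2 differences are given with their SE. In albino frogs, 33 of the 66 genes tested were higher and 13 lower in liver than in skin, where 45.5% of all tested genes differed (21.5% higher and 24.0% lower). Liver against eyes gave 36 higher and 22 lower of 70 in albino frogs, with 68.3% of all genes (30.3% higher and 38.1% lower). Eyes against skin gave 23 higher and 21 lower of 65, with 59.3% (30.1% and 29.2%). Wild-type frogs gave 31 higher and 15 lower of 69 for liver against skin, with 44.4% of all genes (19.1% higher and 25.3% lower). They gave 38 higher and 20 lower of 70 for liver against eyes, with 68.9% (30.4% and 38.6%), and 22 higher and 26 lower of 67 for eyes against skin, with 55.8% (29.2% and 26.6%). Large shares of all genes thus differed between tissues, and the members' counts are to be read against them. These tests had no term for same-numbered libraries of different tissues, many of which deviated together. They scaled libraries by TMM, which sets liver higher against skin and eyes than deposited FPKM does. The leading tissues counted below are by FPKM and were not ranked with TMM. Of the 49 genes of the 3 families tested, 28 were higher and 10 lower in albino liver than in albino skin, and in wild-type frogs it was 26 higher and 9 lower of 51.

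The glutathione S-transferases differed in their leading tissue, and some were abundant in more than 1 tissue. MGST1, a membrane-bound enzyme that conjugates glutathione and reduces lipid peroxides, was the most abundant of them in liver, with 395, 449 and 451 FPKM in albino liver, against 326, 327 and 328 FPKM in wild-type liver. It averaged 76.7 ± 12.9 FPKM in albino eyes, 45.9 ± 12.6 in wild-type eyes, 7.54 ± 3.46 in albino skin and 11.6 ± 5.62 in wild-type skin. Albino liver exceeded albino skin by 7.01 ± 0.56 on the log2 scale (adjusted p = 3.15e-05). By deposited FPKM its relative MGST3, which lies in the same membranes, was highest in skin. It averaged 311 ± 45.4 FPKM in albino skin and 308 ± 11.6 FPKM in wild-type skin. In liver MGST3 averaged 212 ± 40.7 FPKM in albino and 221 ± 36.9 FPKM in wild-type libraries. This order depended on the scaling, since TMM puts MGST3 higher in liver than in skin in both genotypes. GSTZ1, the maleylacetoacetate isomerase of tyrosine breakdown, stood beside MGST1 in liver, with 291, 433 and 412 FPKM in albino liver, against 259, 315 and 275 FPKM in wild-type liver. Wild-type liver exceeded wild-type eyes by 4.59 ± 0.19 for GSTZ1 (adjusted p = 1.31e-06). The theta-class gene LOC141146475 was a skin gene, at 2.01, 7.78 and 1.25 FPKM in albino skin and 17.0, 11.4 and 11.4 FPKM in wild-type skin, with no library of liver or eyes above 1.10 FPKM. The Mu 5-like gene LOC141128541, of the class named Mu, was the leading glutathione S-transferase of the eyes, at 168 ± 44.8 FPKM in albino and 51.5 ± 10.1 FPKM in wild-type libraries. It was not bound to the eyes, with 111 ± 20.0 FPKM in albino skin and 51.1 ± 14.7 FPKM in wild-type skin. The highest mean FPKM fell in liver for 9 genes, eyes for 5, skin for 10 and stayed below 1 FPKM for 4 in albino frogs. Wild-type frogs had 9, 3, 14 and 2 in the same order, and 21 of the 24 genes above 1 FPKM in both had the same leading tissue.

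A single gene made up most of the liver sulfotransferase sum. The sulfotransferase 1C1-like gene LOC141108187 had 1024, 1152 and 993 FPKM in albino liver, against 1565, 1591 and 1756 FPKM in wild-type liver. It held 92.9% of the family's sum in albino liver and 90.8% in wild-type liver. In wild-type frogs its level in liver exceeded that in eyes by 15.06 ± 0.42 on the log2 scale (adjusted p = 7.45e-07), and eyes lay below skin by a difference of -5.75 ± 0.92. The 1C4-like genes LOC141148505 and LOC141148506 were also liver genes, and LOC141148506 had 0 counts in every library of eyes and skin. Over the group, it had 3180 counts in albino liver, at least 2344-fold more than in albino skin, with 3 counts taken as the floor. Wild-type liver had 3531 counts of it, at least 2098-fold more than wild-type skin. The eyes had a different leading set. SULT4A1, a brain sulfotransferase with no settled substrate in mammals, had 6.52, 12.9 and 8.61 FPKM in albino eyes and 10.6, 5.66 and 7.89 FPKM in wild-type eyes, against 0 counts in albino liver and albino skin and 1 count in each of wild-type liver and wild-type skin. The 1B1-like gene LOC141148488, related to an enzyme that sulfates phenols and thyroid hormones in mammals, was the most abundant sulfotransferase of the eyes in both genotypes. In albino frogs it was higher in eyes than in skin by 3.20 ± 0.31 (adjusted p = 7.36e-05). By mean FPKM, liver led for 12 genes in albino and 13 in wild-type frogs. Of the 16 genes above 1 FPKM in both genotypes, 15 had the same leading tissue.

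Among the UDP-glucuronosyltransferases, LOC141146890 led in liver. It is described as like UGT1A1, the bilirubin-conjugating enzyme of mammals, and had 37.6, 28.5 and 18.5 FPKM in albino liver, against 71.3, 49.5 and 34.2 FPKM in wild-type liver. Albino liver was above albino skin by 7.78 ± 0.40 on the log2 scale (adjusted p = 4.49e-06), and wild-type liver was above wild-type skin by 8.83 ± 0.46 (adjusted p = 2.20e-05). The 3A1-like gene LOC141132590 had 7.58, 7.61 and 4.61 FPKM in albino liver, against 6.14, 3.07 and 3.73 FPKM in wild-type liver, and 0 counts in albino skin. In mammals enzymes of the UGT3 group use sugars other than glucuronic acid. The 2A2-like gene LOC141108787 was the member spread over all tissues, with means from 0.931 FPKM in albino eyes to 3.24 FPKM in wild-type liver. No UDP-glucuronosyltransferase other than this one reached 1 FPKM in an eye group, and LOC141108787 did so in wild-type eyes.

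Other abundant or tissue-bound members filled out this picture. LOC141128265, described as glutathione S-transferase 3, mitochondrial-like, had 175, 135 and 153 FPKM in albino liver, against 274, 249.9 and 290.2 FPKM in wild-type liver, and 134, 107 and 111 FPKM in albino skin, against 163, 114 and 273 FPKM in wild-type skin. It was among the 3 leading glutathione S-transferases of wild-type liver and of wild-type skin. LANCL2, the LanC-like relative of LANCL1, averaged 7.31 ± 1.92 FPKM in albino eyes and 6.48 ± 1.59 FPKM in wild-type eyes, and wild-type eyes were above wild-type skin by 2.49 ± 0.28 on the log2 scale (adjusted p = 0.000313). LOC141111865, described as microsomal glutathione S-transferase 2-like, had means of 0.452 FPKM in albino liver and 0.583 FPKM in wild-type liver. Its means were 7.88 FPKM in albino skin, 11.6 FPKM in wild-type skin, 8.71 FPKM in albino eyes and 5.37 FPKM in wild-type eyes. Among sulfotransferases, LOC141112262, described as sulfotransferase 1 family member D1-like, was a liver gene at 9.35 ± 3.63 FPKM in albino and 13.5 ± 1.34 FPKM in wild-type libraries. LOC141148489, described as sulfotransferase 1 family member D1-like, had 10.1, 13.8 and 15.8 FPKM in albino eyes, against 7.41, 6.46 and 6.01 FPKM in wild-type eyes, and was also among the leading sulfotransferases of skin, with 8.87, 13.7 and 6.72 FPKM in albino skin, against 5.85, 1.85 and 6.31 FPKM in wild-type skin. LOC141148500, described as sulfotransferase 1C1-like, had 0.821 ± 0.169 FPKM in albino skin and 1.10 ± 0.237 FPKM in wild-type skin.

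**Figure D2:**
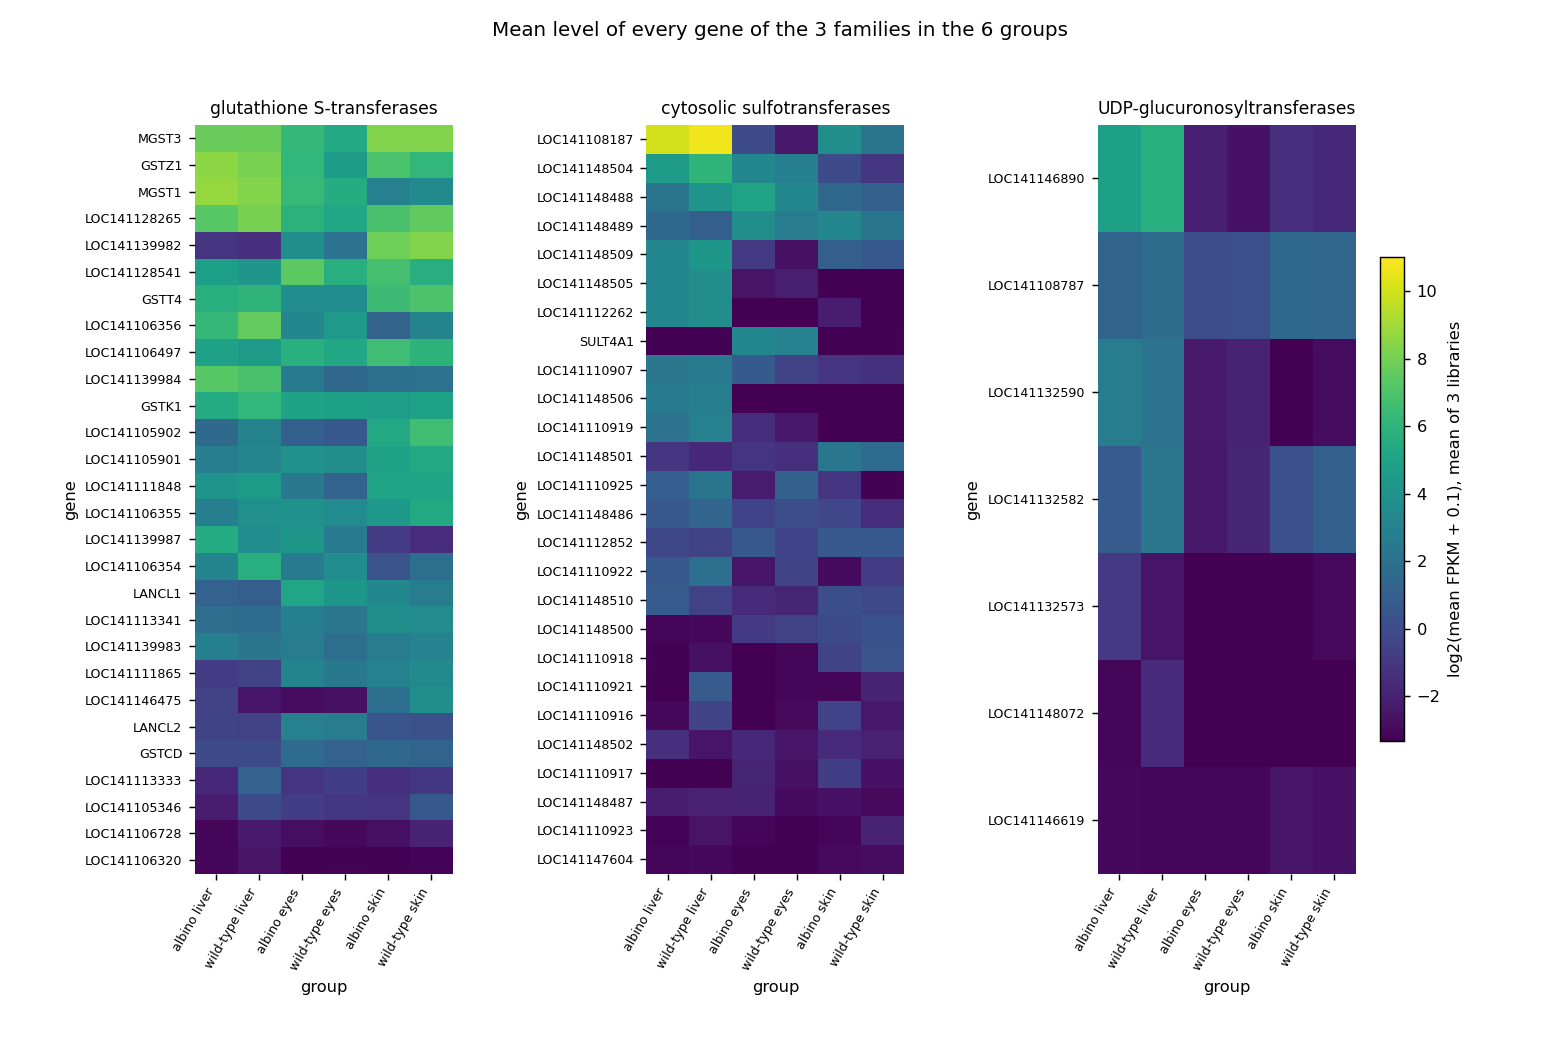
Mean level of every gene of the 3 families (rows, ordered by overall level within a family) in the 6 groups (columns), as log2 of the mean FPKM of 3 libraries plus 0.1. Light cells are high: LOC141108187 stands out in both liver columns and LOC141139982 in both skin columns. MGST3 is high in the skin and the liver columns, and SULT4A1 is dark outside the eyes.

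Of the 83 genes, 43 lie in 11 runs of direct neighbours in the RefSeq gene table, and genes of 1 run often had different leading tissues. In the run of 4 genes like glutathione S-transferase 3, LOC141139982 was a skin gene, with 231 ± 49.2 FPKM in albino skin and 311 ± 161 FPKM in wild-type skin. It differed between liver and skin by -8.19 ± 0.67 on the log2 scale in albino frogs (adjusted p = 4.83e-05) and by -9.25 ± 0.91 in wild-type frogs (adjusted p = 0.000220). Its neighbour LOC141139984 was a liver gene, with 153 ± 17.4 FPKM in albino and 118 ± 15.6 FPKM in wild-type libraries, above eyes by 6.23 ± 0.32 in albino and 6.54 ± 0.37 in wild-type frogs. The last gene of the run, LOC141139987, had 73.6, 32.5 and 27.2 FPKM in albino liver, against 36.2, 1.38 and 1.497 FPKM in wild-type liver. Wild-type liver 1 stood far from the other 2 libraries of its group for this gene, also for LOC141113333 (5.49, 0.360 and 0.604 FPKM in wild-type liver 1, 2 and 3) and LOC141105902 (17.8, 3.76 and 3.96 FPKM).

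The run of 9 genes of the sulfotransferase 1C type held liver and skin genes side by side. LOC141148504, LOC141148505, LOC141148506 and LOC141148509 had means from 6.15 to 22.1 FPKM in albino liver and from 6.90 to 66.5 FPKM in wild-type liver. LOC141148501 instead had 4.76 ± 0.575 FPKM in albino skin and 3.15 ± 0.640 FPKM in wild-type skin, and differed between albino liver and albino skin by -2.39 ± 0.32 (adjusted p = 0.000444). The run of 8 genes like SULT2B1, an enzyme that makes cholesterol sulfate in mammalian skin, held LOC141110919, LOC141110921, LOC141110922 and LOC141110925 in wild-type liver, with means from 1.66 to 7.32 FPKM. LOC141110918 of the same run was a skin gene, with 1.00, 0.407 and 0.617 FPKM in albino skin, against 1.05, 1.49 and 0.938 FPKM in wild-type skin, and its liver level was at most 0.145 FPKM.

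**Figure D3:**
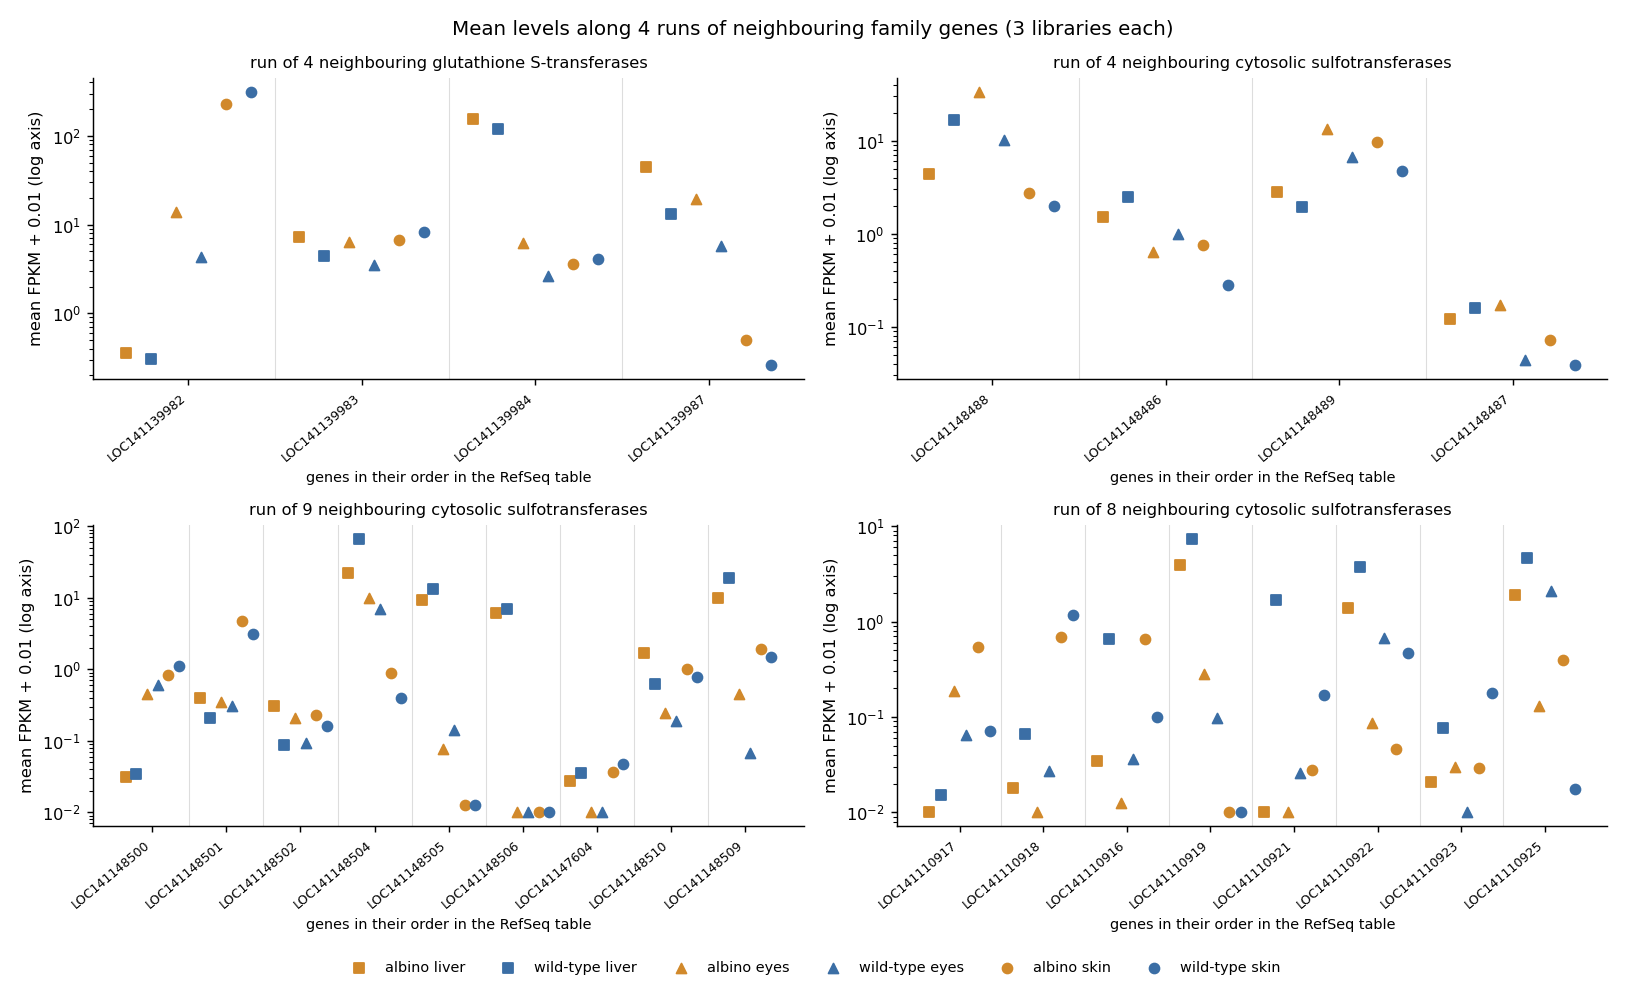
Mean FPKM plus 0.01 (log axis) of the genes in 4 runs of neighbours, in their order in the RefSeq table; color marks the genotype and symbol the tissue. Neighbouring genes differ in the tissue that is highest; in the run of 8, LOC141110921 lies at the floor in albino liver and at 1.66 FPKM in wild-type liver.

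Whether these conjugating enzymes differ between albino and wild-type frogs was asked in each tissue with the same test. In liver, 4 of the 63 genes tested rose and 7 fell in albino frogs, 11 in all, beside 5.76% of all genes tested in either direction (2.86% higher and 2.90% lower). In eyes, 7 of 65 rose and 3 fell, beside 11.2% of all genes (5.10% higher and 6.10% lower). In skin none of 63 passed by edgeR, beside 0.0946% of all genes (0.0591% higher and 0.0355% lower). DESeq2 called 8, beside 4.47% of all genes by DESeq2. By edgeR 12 had an unadjusted p under 0.05. No share of all genes is given beside counts by unadjusted p, here or below. Over the 3 families alone, 3 genes rose and 7 fell of 48 in liver, and 7 rose and 2 fell of 45 in eyes. Their median log2 difference was -0.13 in liver, 0.25 in eyes and 0.05 in skin, where the median over all tested genes was 0.0012, 0.0093 and 0.0083 in the same order.

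**Figure D4:**
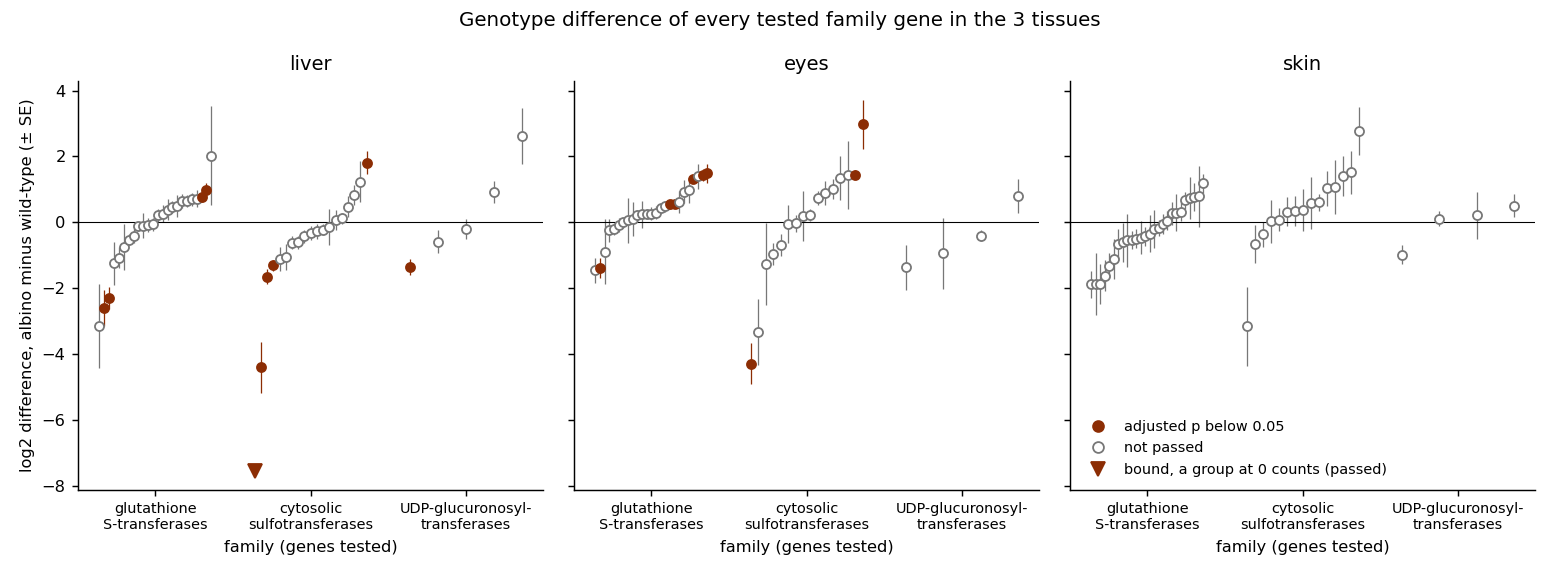
Log2 difference of albino minus wild-type with its SE for each tested gene of the 3 families, by tissue; filled points passed at an adjusted p below 0.05, and the triangle is the bound for LOC141110921, which had 0 counts in albino liver. In liver 3 points passed above 0 and 7 below, counting the triangle; in eyes 7 passed above and 2 below; in skin none passed.

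In liver, the sulfotransferases gave 1 gene that rose and 4 that fell in albino frogs, of 19 tested. The 2B1-like gene LOC141110921 had 0 counts in all 3 albino livers, against 1.29, 2.07 and 1.63 FPKM in wild-type livers. With the floor of 3 counts over the group, albino liver was at least 188-fold lower than wild-type liver, which had 677 counts (adjusted p = 0.000812). The groups were fully apart, and the call held in all 15 alternative settings. LOC141148488 had 4.78, 3.31 and 5.20 FPKM in albino liver, against 22.2, 12.4 and 15.7 FPKM in wild-type liver. Its log2 difference was -1.65 ± 0.24 (adjusted p = 0.00881), also kept in all 15 settings. LOC141148504, the second most abundant liver sulfotransferase and 1C1-like, had 24.1, 19.3 and 23.0 FPKM in albino liver, against 57.5, 64.3 and 77.7 FPKM in wild-type liver. The difference was -1.31 ± 0.17 (adjusted p = 0.00597), with every albino library below every wild-type library, and the call was kept in 14 of 15 settings, being lost in the fit of all 18 libraries (adjusted p = 0.114). LOC141110916, another 2B1-like copy, had 0.0371, 0.0222 and 0.0146 FPKM in albino liver, against 0.156, 0.818 and 0.981 FPKM in wild-type liver, a difference of -4.40 ± 0.77 (adjusted p = 0.0191). Wild-type liver 1 was the lowest of its group for that gene. The only sulfotransferase that rose was the 1C1-like LOC141148510, with 1.60, 2.05 and 1.46 FPKM in albino liver, against 0.538, 0.412 and 0.868 FPKM in wild-type liver, and its difference was 1.81 ± 0.34 (adjusted p = 0.0223).

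The dominant LOC141108187 did not pass in liver, although its FPKM did not overlap between the genotypes. Its TMM-scaled log2 difference was -0.33 ± 0.21 (adjusted p = 0.405). With library totals in place of TMM the median of all genes in liver was -0.28 on the log2 scale, and 1 gene of the set passed as higher and 12 as lower in liver, against 4 and 7 with TMM. No share of all genes with library totals is given beside these counts, so they show only how the number of calls moved.

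The liver glutathione S-transferases gave 2 genes that rose and 2 that fell, of 24 tested. The 2 that fell are both P 1-like, of the Pi class that in mammals is known from epithelia and bile ducts. Other P 1-like genes leaned both ways in liver without passing. Their log2 differences were 0.64 for LOC141106497, 0.39 for LOC141113341 and -3.14 for LOC141113333. LOC141106354 had 5.41, 6.52 and 13.8 FPKM in albino liver, against 44.5, 52.1 and 57.1 FPKM in wild-type liver. This difference of -2.30 ± 0.34 (adjusted p = 0.0105) left the groups far apart. LOC141105346 was much scarcer, with 0.189, 0.0840 and 0.0829 FPKM in albino liver, against 1.12, 0.547 and 0.997 FPKM in wild-type liver, a difference of -2.60 ± 0.53 (adjusted p = 0.0294). LOC141106356, the neighbour of LOC141106354, had 61.2, 49.0 and 115 FPKM in albino liver, against 252, 158 and 158 FPKM in wild-type liver, a difference of -1.07 ± 0.33 that did not pass (adjusted p = 0.0975). The 2 that rose changed by less. The Mu 5-like LOC141128541 had 33.9, 22.4 and 25.7 FPKM in albino liver, against 18.7, 19.1 and 20.0 FPKM in wild-type liver, a difference of 0.78 ± 0.16 (adjusted p = 0.0299). LOC141139983, like glutathione S-transferase 3, had 7.43, 5.26 and 9.10 FPKM in albino liver, against 5.65, 3.55 and 4.16 FPKM in wild-type liver, a difference of 0.97 ± 0.23 (adjusted p = 0.0468). Both calls were lost with library totals in place of TMM. The abundant MGST1 and GSTZ1 had differences of 0.70 ± 0.20 (adjusted p = 0.0775) and 0.72 ± 0.25 (adjusted p = 0.138) and did not pass.

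Of the 5 UDP-glucuronosyltransferases tested in liver, 1 fell. The 3A1-like LOC141132582 had 1.63, 1.84 and 1.33 FPKM in albino liver, against 5.49, 5.40 and 4.17 FPKM in wild-type liver, a difference of -1.35 ± 0.24 (adjusted p = 0.0190). Its neighbour LOC141132590 had a difference of 0.92 ± 0.32 (adjusted p = 0.140), and the leading LOC141146890 had -0.59 ± 0.35 (adjusted p = 0.358), neither of which passed. Of the 10 liver calls in the 3 families, those of LOC141110921, LOC141148488 and LOC141148504 held with any 1 library left out. The other 7 were lost without wild-type liver 2, at adjusted p up to 0.189 over single libraries left out. Without albino liver 2 the calls of LOC141106354, LOC141110916, LOC141148510, LOC141105346, LOC141128541 and LOC141139983 were lost. Those of LOC141110916, LOC141105346, LOC141128541 and LOC141139983 were also lost without albino liver 3 or wild-type liver 3, that of LOC141106354 without wild-type liver 3, that of LOC141132582 without albino liver 3 and that of LOC141139983 without albino liver 1.

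Markers of other cell types moved with the liver groups. The 5 macrophage and granulocyte markers in the table summed to 79.5 to 162 FPKM in albino liver and 236 to 412 FPKM in wild-type liver. The 3 erythrocyte markers summed to 18.5 to 42.0 FPKM in albino liver and 9.89 to 14.8 FPKM in wild-type liver, and the 8 lymphocyte markers to 13.1 to 28.4 and 32.3 to 51.6 FPKM in the same groups. The 5 skeletal muscle markers summed to 0.758 to 1.02 FPKM in albino liver and 4.34 to 5.74 FPKM in wild-type liver, the 10 rod and cone markers to 1.43 to 2.07 and 9.57 to 15.7 FPKM, and the 5 retinal pigment epithelium markers to 8.01 to 8.71 and 0.711 to 1.17 FPKM in the same groups. Of these, only 2 skeletal muscle markers, 1 rod and cone marker (PDE6C) and 2 retinal pigment epithelium markers had enough counts to be tested in liver. The 2 skeletal muscle markers and PDE6C passed as lower. Of the retinal pigment epithelium markers, LRAT alone passed, as higher. The sums of these lists thus rest on few genes and do not describe the lists as wholes. All 3 erythrocyte markers passed as higher, and 2 of the 5 macrophage and granulocyte markers passed as lower. None of the 8 lymphocyte markers passed. Of all genes tested in liver, 5.76% passed. The hepatocyte sums given above were higher in every albino library, and 2 of the 4 hepatocyte markers tested passed as higher. Bile duct and gut markers, 6 genes, summed to 5.67 to 9.65 FPKM in albino liver and 13.8 to 14.5 FPKM in wild-type liver. Only 2 of these 6 had enough counts to be tested in liver, and they did not pass. Markers at 0 counts in albino liver were 1 of skeletal muscle, 4 of rods and cones and 2 of the retinal pigment epithelium, and in wild-type liver 5 of rods and cones and 1 of bile duct and gut. Their part in the differences above was not tested.

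In eyes, 5 glutathione S-transferases rose and 1 fell in albino frogs, of 25 tested. GSTZ1 had 63.0, 73.8 and 77.4 FPKM in albino eyes, against 27.9, 19.7 and 24.7 FPKM in wild-type eyes, a log2 difference of 1.31 ± 0.13 (adjusted p = 0.00194). Every albino library was above every wild-type library by a wide margin. LOC141128541 had 211, 173 and 121 FPKM in albino eyes, against 63.1, 44.6 and 47.0 FPKM in wild-type eyes, a difference of 1.44 ± 0.19 (adjusted p = 0.00569), again without overlap. LOC141139987 had 27.7, 16.8 and 13.6 FPKM in albino eyes, against 6.40, 3.66 and 7.29 FPKM in wild-type eyes, a difference of 1.48 ± 0.30 (adjusted p = 0.0242). LANCL1, a LanC-like protein that binds glutathione, had a smaller difference of 0.55 ± 0.10 (adjusted p = 0.0186), with 32.7, 37.9 and 31.8 FPKM in albino eyes, against 21.8, 17.2 and 19.2 FPKM in wild-type eyes. MGST3 differed by 0.54 ± 0.13 (adjusted p = 0.0354), with 87.4, 72.1 and 67.1 FPKM in albino eyes, against 51.3, 38.1 and 39.9 FPKM in wild-type eyes. The gene that fell was the P 1-like LOC141106356, with 12.8, 6.91 and 9.74 FPKM in albino eyes, against 17.0, 25.5 and 19.6 FPKM in wild-type eyes, a difference of -1.38 ± 0.30 (adjusted p = 0.0315).

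Of the 16 sulfotransferases tested in eyes, 2 rose and 1 fell in albino frogs. LOC141148488 had 36.4, 34.2 and 29.3 FPKM in albino eyes, against 11.6, 9.28 and 9.42 FPKM in wild-type eyes. The groups did not overlap, and the log2 difference was 1.45 ± 0.13 (adjusted p = 0.00130). LOC141108187, the dominant liver gene, was rare in eyes, with 1.27, 0.301 and 1.16 FPKM in albino eyes, against 0.09999, 0.130 and 0.0499 FPKM in wild-type eyes. Albino eyes were higher by 2.97 ± 0.75 on the log2 scale (adjusted p = 0.0444), a call lost when any library was left out. The sum of the 5 hepatocyte markers moved in the same direction, at 0.518 to 2.16 FPKM in albino eyes and 0 to 0.180 FPKM in wild-type eyes. Of the 5, 1 was at 0 counts in albino and 2 in wild-type eyes. Only 1 of the 5 had enough counts to be tested in eyes, and it passed as higher. The sum thus does not describe the list as a whole. The part of these markers in the difference of LOC141108187 was not tested. LOC141110925, 2B1-like, had 0.200, 0.118 and 0.0476 FPKM in albino eyes, against 3.56, 1.38 and 1.29 FPKM in wild-type eyes, a difference of -4.30 ± 0.62 (adjusted p = 0.00826). LOC141110921 was at 0 counts in all albino eyes and at 6 counts over the wild-type eyes, too few to be tested. None of the 4 UDP-glucuronosyltransferases tested in eyes passed by edgeR or by DESeq2. LOC141108787 alone had an unadjusted p under 0.05, with a difference of -0.40 ± 0.17 (adjusted p = 0.166). With any 1 eye library left out, the calls of LOC141148488, GSTZ1, LOC141128541 and LOC141110925 held. That of LOC141148488 was lost in the fit of all 18 libraries and with the crystallin share as a covariate, at an adjusted p of up to 0.112. That of LANCL1 was lost without albino eyes 2, wild-type eyes 2 or wild-type eyes 3, and that of LOC141139987 without albino eyes 1, albino eyes 2, wild-type eyes 1 or wild-type eyes 2. Those of LOC141106356 and MGST3 were lost without any 1 library other than wild-type eyes 1.

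The lens share of the eye libraries moved with the genotype. With the share of crystallin counts as a covariate, 1 of the 10 eye calls remained, GSTZ1, and in this design lens share and genotype cannot be told apart. With the crystallin genes left out of the table before scaling, 10 genes were again called, 7 higher and 3 lower. Library totals without TMM gave 15 higher and 3 lower, with the median of all genes at 0.28 on the log2 scale. No share of all genes is given beside the counts in these settings, so they show only how the number of calls moved. The 5 retinal pigment epithelium markers also summed higher, at 1853 to 2442 FPKM in albino eyes and 1045 to 1433 FPKM in wild-type eyes. Of these 5, 3 passed as higher, beside 5.10% of all genes tested. The 5 skeletal muscle markers summed to 2025 to 4593 and 606 to 1649.8 FPKM in the same groups, and none of them passed. The 10 lens markers summed to 11.0 to 60512 FPKM in albino eyes and 97856 to 150895 FPKM in wild-type eyes. The 6 epidermis markers summed to 120.4 to 223 FPKM in albino eyes and 76.0 to 84.0 FPKM in wild-type eyes, and the 3 erythrocyte markers to 3.28 to 4.93 and 1.62 to 2.60 FPKM in the same groups. None of the lens or erythrocyte markers passed, and of the 10 rod and cone markers 2 passed as higher and 2 as lower. These sums are in deposited FPKM and were not rescaled for the crystallin share. The epidermis list did not move as a whole: its median log2 difference by edgeR was -0.44, and KRT18 alone passed, as higher. Of the 5 macrophage and granulocyte markers tested, LYZ and CSF1R fell in albino eyes, while their summed levels overlapped at 18.2 to 24.3 FPKM in albino eyes and 17.7 to 39.3 FPKM in wild-type eyes. All of these lists were detected in both groups, and their part was not tested.

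In skin no gene of the set passed by edgeR, and of the 45 genes of the 3 families tested, 7 were higher and 6 lower in albino skin without overlap, beside 10.4% and 9.43% of all genes tested and 19.8% in either direction. The smallest p-value among glutathione S-transferases belonged to the P 1-like LOC141106356, with 2.50, 1.76 and 2.46 FPKM in albino skin, against 5.72, 8.21 and 10.8 FPKM in wild-type skin. Its difference of -1.88 ± 0.41 had an adjusted p of 0.149 in edgeR's test. The Mu 5-like LOC141128541 had 113, 90.4 and 130.2 FPKM in albino skin, against 68.0, 41.5 and 43.9 FPKM in wild-type skin, a difference of 1.18 ± 0.28 (adjusted p = 0.169). In both genes the groups did not overlap. Among sulfotransferases the smallest p was that of LOC141110916, with 0.457, 1.23 and 0.253 FPKM in albino skin, against 0.0632, 0.0804 and 0.125 FPKM in wild-type skin, a difference of 2.77 ± 0.72 (adjusted p = 0.187). LOC141132582 had the smallest p among UDP-glucuronosyltransferases, with 1.01, 0.928 and 1.16 FPKM in albino skin, against 2.22, 2.30 and 1.79 FPKM in wild-type skin, a difference of -0.98 ± 0.28 (adjusted p = 0.222). The most abundant skin genes, MGST3 and LOC141139982, had differences of 0.05 ± 0.30 (adjusted p = 0.962) and -0.47 ± 0.50 (adjusted p = 0.738). LOC141110921 had 7 counts over albino skin, all in albino skin 2, against 62 over wild-type skin, a difference of -3.15 ± 1.20 (adjusted p = 0.341). LOC141148488 had 2.52, 3.99 and 1.73 FPKM in albino skin, against 0.901, 1.66 and 3.43 FPKM in wild-type skin, overlapping groups with a difference of 0.37 ± 0.63 (adjusted p = 0.842). Macrophage and granulocyte markers summed to 24.4 to 34.7 FPKM in albino skin and 34.5 to 176 FPKM in wild-type skin, and skeletal muscle markers reached 80.0 FPKM in albino skin 2, against at most 3.22 FPKM in wild-type skin. Erythrocyte markers summed to 3.48 to 10.8 FPKM in albino skin and 2.68 to 3.42 FPKM in wild-type skin.

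Of the 36 genes of the 3 families tested in all 3 tissues, 12 had a positive and 6 a negative difference in every tissue, 18 in all, and 42.4% of all genes tested in the 3 tissues had 1 sign throughout. The genes given next are among those 18, except LOC141105346 and LOC141106355, and include calls with large differences. The P 1-like neighbours LOC141106354 and LOC141106356 had negative differences throughout, of -2.30 ± 0.34 and -1.07 ± 0.33 in liver, -1.45 ± 0.38 and -1.38 ± 0.30 in eyes, and -1.62 ± 0.46 and -1.88 ± 0.41 in skin. The P 1-like LOC141105346 and the P 2-like LOC141106355 had both signs, at -2.60 and -0.75 in liver, 0.06 and 0.09 in eyes, and -1.87 and -1.12 in skin. The P 1-like LOC141106497 and LOC141113341 were positive throughout, at 0.64 and 0.39 in liver, 0.26 and 0.27 in eyes, and 0.74 and 0.30 in skin. The P 1-like LOC141113333 was negative throughout, at -3.14 in liver, -0.89 in eyes and -0.54 in skin. These last P 1-like genes passed in no tissue, so the P-like genes went both ways. The genotypes did not overlap for LOC141106354 or LOC141106356 in any tissue. Such a lack of overlap was seen for 28.7% of all tested genes in liver, 36.6% in eyes and 19.8% in skin. LOC141106354 passed in liver and LOC141106356 in eyes. In the other direction, LOC141128541 passed in liver and eyes and had 1.18 ± 0.28 in skin. GSTZ1 passed in eyes, with 1.31 ± 0.13 there, 0.72 ± 0.25 in liver and 0.77 ± 0.42 in skin. The 3A1-like LOC141132582 was negative throughout, with -1.35 ± 0.24 in liver, -1.37 ± 0.70 in eyes and -0.98 ± 0.28 in skin, and passed in liver.

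Other genes leaned in opposite ways, and the difference itself was tested as the interaction of genotype and tissue. The test took the libraries as independent, although many same-numbered libraries of different tissues within a genotype deviated together. Between liver and eyes, 2 of the 74 genes tested had a more positive albino effect in liver and 3 a more negative one, beside 3.42% of all genes (2.11% and 1.31%). The smallest p was that of LOC141148488: its albino effect was -1.65 ± 0.24 in liver and 1.45 ± 0.13 in eyes, and the effects differed by -3.07 ± 0.29 (adjusted p = 0.000305). The 2 groups were apart in both tissues, with albino libraries lower in liver and higher in eyes. LOC141148504 differed by -1.49 ± 0.23 (adjusted p = 0.00583). Beside its fall in albino liver it had 11.2, 10.5 and 8.45 FPKM in albino eyes, against 6.66, 7.64 and 6.87 FPKM in wild-type eyes. Its TMM-scaled log2 difference in eyes was 0.22 and did not pass. The interaction calls of LOC141148488 and LOC141148504 held in all 18 alternative settings. LOC141108187, LOC141110925 and CHST15 also passed, with differences of -3.26 ± 0.66, 3.28 ± 0.73 and 1.58 ± 0.33. These calls were lost in 5, 11 and 7 of 18 settings in that order, and that of LOC141110925 was lost with the replicate block. The lens share given above moved with the eye groups, and its part in these differences was not tested. Between liver and skin, 1 of 73 genes passed, LOC141110916, beside 0.270% of all genes (0.110% more negative in liver), with a difference of -7.16 ± 1.14 (adjusted p = 0.0322). That call was lost in 11 of 18 settings, the replicate block among them. Between eyes and skin none of 73 passed by edgeR, beside 0.991% of all genes by the same test. Of the 73, 10 had an unadjusted p under 0.05 and DESeq2 called 4, and no share of all genes is given beside these counts.

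**Figure D5:**
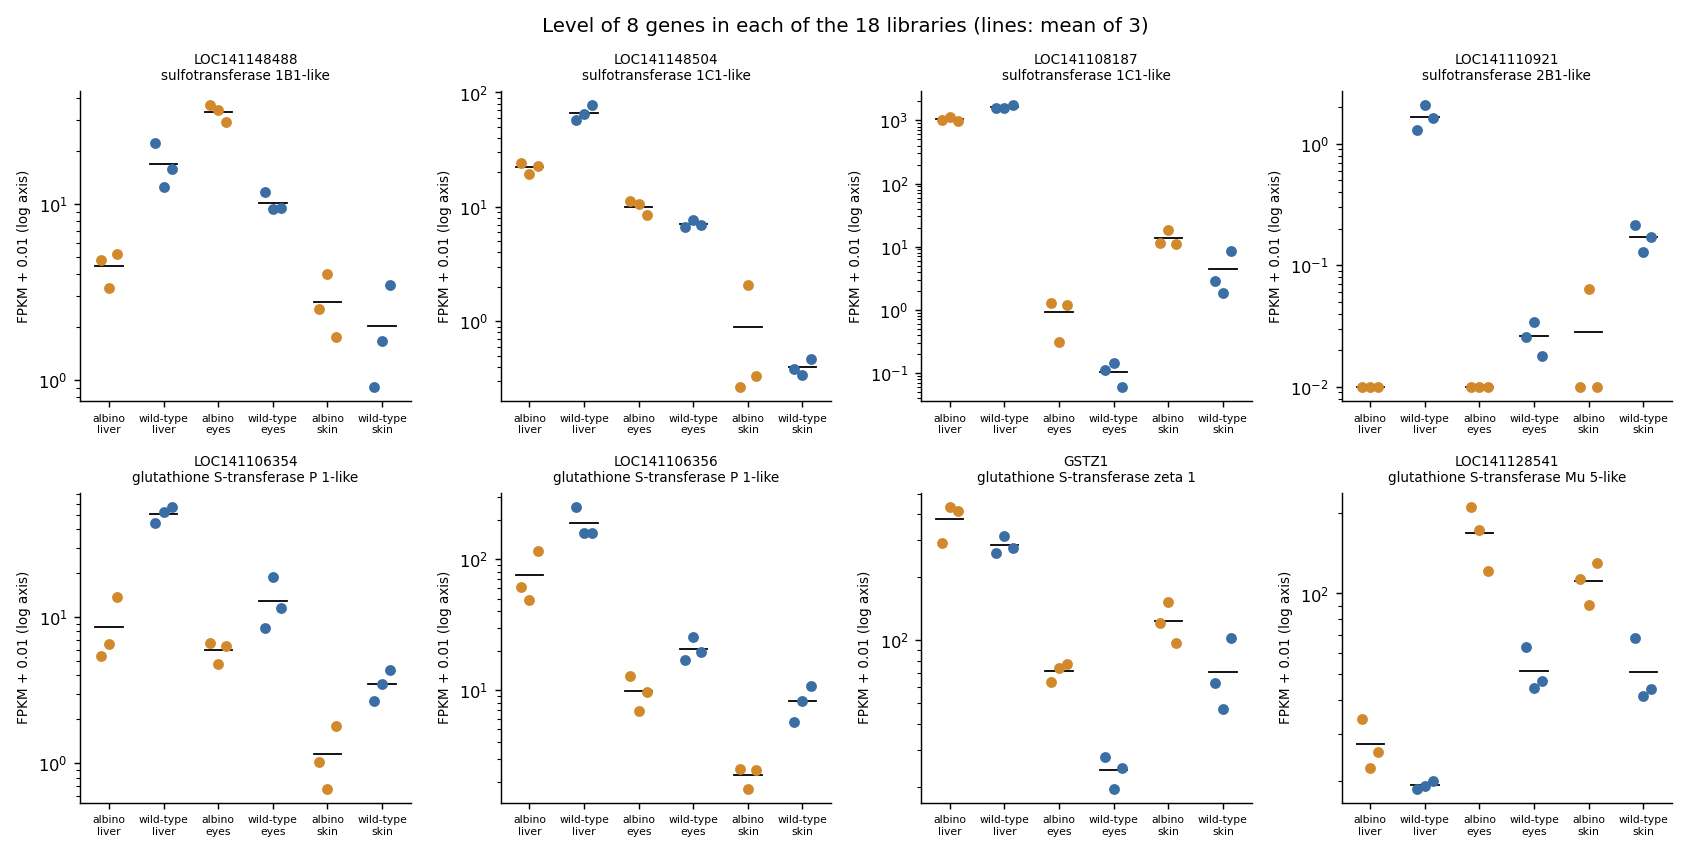
FPKM plus 0.01 (log axis) of 8 genes in each of the 18 libraries, by genotype and tissue; lines are means of 3. LOC141148488 is lower in albino liver and higher in albino eyes, LOC141106354 and LOC141106356 have lower albino means in all 3 tissues, and LOC141128541 and GSTZ1 have higher ones.

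The supply of donors and the export of conjugates were followed in 7 lists of related genes. Their counts are to be read beside the share of all tested genes that passed, 5.76% in liver, 11.2% in eyes and 0.0946% in skin. By DESeq2 the shares were 12.4%, 19.6% and 4.47% in the same order. In liver, 1 of the 9 sulfate donor genes tested fell: PAPSS2, which makes the donor PAPS, had 17.4, 16.5 and 24.4 FPKM in albino liver, against 58.7, 54.2 and 51.0 FPKM in wild-type liver, a log2 difference of -1.21 ± 0.21 (adjusted p = 0.0169). Of the 7 genes of glucuronic acid donor supply tested in liver, 2 that rose are given here. PGM1, which interconverts glucose phosphates, rose by 1.43 ± 0.26 on the log2 scale (adjusted p = 0.0191), with 124, 189.6 and 179 FPKM in albino liver, against 81.9, 71.0 and 73.9 FPKM in wild-type liver. UGP2, which makes UDP-glucose, rose by 1.09 ± 0.22 (adjusted p = 0.0299). Among 15 regulators tested, AHR, the receptor that switches on many conjugating enzymes, rose by 1.14 ± 0.22 (adjusted p = 0.0238), and MAFF, a small Maf partner of such factors, differed by -0.95 ± 0.17 (adjusted p = 0.0191). EPHX2, the soluble epoxide hydrolase, was the 1 of 6 other conjugating and hydrolysing enzymes that passed, with -0.82 ± 0.19 (adjusted p = 0.0411). None of the 15 glutathione supply genes tested in liver passed by edgeR, 6 had an unadjusted p under 0.05 and DESeq2 called 3. None of the 6 export genes passed, 4 had an unadjusted p under 0.05 and DESeq2 called 1. Each of the 6 calls named here was lost without wild-type liver 2, and those of AHR and UGP2 also with library totals in place of TMM and with limma on FPKM.

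In eyes, 1 of 16 glutathione supply genes rose: CBS, which feeds homocysteine towards cysteine, had 36.7, 37.6 and 34.7 FPKM in albino eyes, against 24.9, 18.7 and 19.6 FPKM in wild-type eyes, a log2 difference of 0.52 ± 0.10 (adjusted p = 0.0211). SLC35D1, the carrier that brings UDP-glucuronic acid into the endoplasmic reticulum, was the 1 of 7 glucuronic acid donor genes that rose, with 0.70 ± 0.14 (adjusted p = 0.0221). ABCC3, an exporter of glucuronide and glutathione conjugates, was the 1 of 6 export genes that fell, with -0.88 ± 0.17 (adjusted p = 0.0200). Each of these 3 calls was lost without albino eyes 1, albino eyes 2 or wild-type eyes 2, and with the crystallin share as a covariate. Of all genes tested in eyes, 11.2% passed (5.10% higher and 6.10% lower). None of the 9 sulfate donor genes tested in eyes passed by edgeR, 4 had an unadjusted p under 0.05 and DESeq2 called 1. In skin none of 67 genes of the 7 lists passed by edgeR, 8 had an unadjusted p under 0.05 and DESeq2 called 7.

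The 22 carbohydrate and tyrosine sulfotransferases, which sulfate glycan chains and tyrosines of proteins on their way to the surface, formed an eye-rich set. These 22 were taken by the number in their names and do not cover the whole class. They summed to 46.2 ± 2.32 FPKM in albino liver, 47.3 ± 4.08 in wild-type liver, 161 ± 8.30 in albino eyes, 139 ± 16.2 in wild-type eyes, 54.9 ± 11.8 in albino skin and 62.8 ± 4.53 in wild-type skin. CHST2, CHST15 and NDST2 led in the eyes of both genotypes. Between the genotypes, 5.76% of all genes tested passed in liver, 11.2% in eyes and 0.0946% in skin. In liver 1 of 15 tested rose: CHST15, which sulfates chondroitin, had 7.65, 10.8 and 9.91 FPKM in albino liver, against 3.78, 5.05 and 6.53 FPKM in wild-type liver, a log2 difference of 1.20 ± 0.26 (adjusted p = 0.0342), lost without albino liver 2, albino liver 3, wild-type liver 2 or wild-type liver 3. In eyes 1 of 20 fell: LOC141105894, like heparan sulfate 3-O-sulfotransferase 1, had 3.82, 2.98 and 3.54 FPKM in albino eyes, against 4.67, 3.69 and 4.67 FPKM in wild-type eyes, a difference of -0.60 ± 0.15 (adjusted p = 0.0396), lost when any library was left out. HS6ST3, a heparan sulfate 6-O-sulfotransferase outside the 83, also passed in eyes with a difference of -1.13 ± 0.28 (adjusted p = 0.0409), and was likewise lost when any library was left out. In skin none of 18 passed by edgeR, 2 had an unadjusted p under 0.05 and DESeq2 called 1.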

How the data were processed

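Bulk RNA sequencing of 18 libraries gave, per gene, deposited counts and FPKM. Per the submitters' processing notes HISAT2 and HTSeq were used, with no versions; genome build, strand use and handling of reads that match several genes: not given in the sources used here. The authors deposited counts as whole reads per gene and FPKM scaled by counted reads, with 1 length per gene. Gene names and neighbours came from a RefSeq table (assembly ASM4218655v1), which matched 24636 of 24636 genes and all 83 members; runs allow gaps of up to 5 genes.

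Counts were tested with edgeR 4.0.16 (quasi-likelihood, robust, filterByExpr, TMM), over 3 genotype, 3 interaction and 6 tissue comparisons. Benjamini-Hochberg adjustment was over all genes tested, at 0.05. Log2 differences are on the TMM scale of edgeR, and SE is the difference over the square root of F. The fitting code was also run on simulated counts, with the outcome not given here. The simulated libraries were independent, without shared deviations between tissues or a difference in lens share, so that run bears on neither. A fold against a group at 0 counts takes 3 counts, summed over that group, as its floor and covers counting error only. FPKM were averaged or summed as deposited. Alternatives were DESeq2 1.42.0, RLE scaling, library totals, no count filter, a replicate block, all 18 libraries, limma 3.58.1 on log2(FPKM + 1) and log2(FPKM + 0.1), each library left out, wild-type liver 2 and 3 summed (an earlier analysis had found them alike), and the crystallin share as a covariate; leaving crystallin genes out was chosen after seeing the data. R 4.3.3, Python 3.11.15, pandas 2.3.3, numpy 2.4.6 and matplotlib 3.10.9 were used.

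The members and lists were chosen with earlier results of these data known. Genes named are LOC141110921 and LOC141148488; every member or list gene that passed between genotypes; the 3 most abundant of each family per tissue; the smallest p of each family per comparison; and the 2 largest tissue differences of each family in each direction. LOC141110919, LOC141110922, LOC141113333, LOC141106355, LOC141106497, LOC141113341, CHST2, NDST2, LYZ, CSF1R, PDE6C, LRAT and KRT18 were named after their values were seen. A gene of the donor lists is not reported here. No pair of libraries of a group agreed within sampling noise; wild-type liver 2 and 3 were the closest, at a chi-square per gene of 45.4, against 159.7 to 277 in the other liver pairs. Same-numbered libraries of the 2 genotypes, within and between tissues, had correlations of deviations from -0.155 to 0.08, so numbers were not taken as pairs between genotypes. Between tissues all same-numbered albino pairs, and wild-type skin with eyes, exceeded 0.1 (0.1597 to 0.4789). Wild-type liver exceeded 0.1 with skin and with eyes at numbers 1 and 2 (0.2107 to 0.3718), and not at number 3 (0.0567 and 0.0898). For wild-type skin 2 a liver library of another number correlated more (0.2482) than liver 2. This pairing was seen in the data and is not stated in the labels. The main tissue and interaction tests had no term for this pairing. In the interactions the replicate block used the bare number, also across the genotypes.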

Additional observations from a re-analysis of the deposited data

Results flagged for a closer look

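In 6 genes the effect of the albino genotype differed between 2 tissues by edgeR's test of the interaction, given here as the log2 albino effect in liver minus that in the other tissue. Against eyes, LOC141148488 had -3.07 ± 0.29 (adjusted p = 0.000305; kept in 18 of 18 alternative settings). LOC141148504 had -1.49 ± 0.23 (adjusted p = 0.00583; kept in 18 of 18 alternative settings). LOC141108187 had -3.26 ± 0.66 (adjusted p = 0.0230; kept in 13 of 18 alternative settings). LOC141110925 had 3.28 ± 0.73 (adjusted p = 0.0320; kept in 7 of 18 alternative settings). CHST15 had 1.58 ± 0.33 (adjusted p = 0.0251; kept in 11 of 18 alternative settings). Against skin, LOC141110916 had -7.16 ± 1.14 (adjusted p = 0.0322; kept in 7 of 18 alternative settings), at 2 to 5 counts per library in albino liver and 21 to 131 in wild-type liver. The lens share of the eye libraries differed between the genotypes, and its part in the 5 differences against eyes was not tested.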

How the results depend on the processing

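Summed levels (log2 albino over wild-type) moved with scaling. By CPM over TMM-scaled totals, glutathione S-transferases gave 0.12 in liver and 0.53 in eyes, cytosolic sulfotransferases -0.39 and 0.56, and all sulfotransferases with the Golgi set -0.34 and 0.047. With crystallin genes left out, eyes gave 0.37, 0.48, -0.64 for UDP-glucuronosyltransferases and -0.0444 for all sulfotransferases. Without the most abundant member, liver gave -1.03 for cytosolic sulfotransferases, -0.22 for UDP-glucuronosyltransferases and -0.74 for all sulfotransferases. Without the Golgi rows, all sulfotransferases gave 0.88 in skin and 0.93 in eyes. Members called were 11 in liver, 10 in eyes and 0 in skin. DESeq2 gave 20, 17 and 8 in the same order, beside 12.4%, 19.6% and 4.47% of all genes tested. For the interactions liver with skin, liver with eyes and eyes with skin it gave 5, 13 and 4. No share of all genes is given beside these interaction counts or the settings that follow, so they show only how the number of calls moved. Library totals gave 18 in eyes and 13 for liver with eyes. All 18 libraries gave 4 in eyes and 3 in skin, limma 20 in eyes with either offset and 1 in skin with 0.1, and the crystallin covariate 1 in eyes. Summing wild-type liver 2 and 3 gave 3 in liver, 0 for liver with skin and 3 for liver with eyes. The replicate block gave 5 in eyes and 0 for liver with skin, and kept every other count within 1.5 times, though it lost LOC141110925 between liver and eyes and UGP2 and EPHX2 in liver; the samples of the genotypes share only a number. Leaving out 1 library gave 3 to 16 in liver, 4 to 8 in eyes, 0 to 2 for liver with skin, 2 to 7 for liver with eyes and 0 to 1 for eyes with skin. The 16 reversals were in skin LOC141148488 -0.0209 without wild-type 1 (to 1.25 without wild-type 3), MGST3 -0.19 without albino 1, -0.0309 and -0.0303 without wild-type 1 and 2 (to 0.24 without albino 2), LOC141139982 0.28 and LOC141108787 -0.0691 without wild-type 3 (to 0.30 without wild-type 1); in liver MGST3 -0.0544 with library totals and -0.0581 and -0.0583 with limma; in eyes SULT4A1 0.22 with library totals, 0.18 and 0.00367 without albino 1 and 3, 0.12 without wild-type 1 (to -0.31 without albino 2), 0.0166 with all 18 libraries and 0.18 and 0.20 with limma. Of the named genes' other alternatives, 1455 kept direction and side of the threshold, 221 lost the call and 21 gained it. The causes were not tested. With 3 libraries a group, copies at a few counts carry wide errors.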
